A study of Mus musculus with 9 samples.

Results

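The regions described here are stretches of mouse chromatin that carried a peak of accessibility in the NanogKO list of embryonic stem cells and in neither of the lists named for the groups with added Esrrb or with added Esrrb and Nanog. They were chosen on measured values, by overlap of at least 1 bp with an interval of the NanogKO peak list and with no interval of either other list. This selected 16076 of 157452 counted regions on chromosomes 1 to 19 and X (10.2%), or 13.5% of the 118686 regions with a NanogKO peak, out of 157497 regions counted in all. They are called NanogKO-only regions below, a name for their place in the peak lists and not for where chromatin was measured as open.

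Accessibility was measured by ATAC-seq, in which a transposase inserts adapters into open DNA, in 9 libraries of mouse embryonic stem cells, 3 in each of 3 groups. NanogKO cells (code 44C6, cell line N{delta}) are Nanog knockouts. NanogKO:Esrrb cells (44J) carry the knockout with Esrrb, and NanogKO:Esrrb:Nanog cells (44JN) carry the knockout with Esrrb and Nanog, and both have the cell line name N{delta}:cE:iN. All groups thus share the Nanog knockout, an untreated culture in 10% serum with 1000 U/ml of LIF, and a sort for cells that carry PECAM and lack PDGFRA. How Esrrb and Nanog were added, and at what level, is not stated in the labels. Each group is 1 coded line, so a difference between codes and a difference in Esrrb or Nanog cannot be told apart. Nothing in the labels ties the replicates to cultures of their own, and p-values therefore measure library-to-library spread that may be technical only.

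A fault in the lists bears on what the regions are. In the list named for the NanogKO:Esrrb:Nanog libraries, 138118 of 138118 intervals carry peak names of NanogKO:Esrrb replicate 3. Absence from that list therefore does not show that a peak was missing in NanogKO:Esrrb:Nanog, and some NanogKO-only regions were more accessible there than in NanogKO. Leaving out the third list would give 20009 regions.

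NANOG and ESRRB are transcription factors that hold mouse embryonic stem cells in self-renewal, and Esrrb, itself a target of NANOG, can stand in for it in part. ATAC-seq reads gather where nucleosomes are displaced, at promoters and at enhancers, the distal elements through which factors act on genes. A stem cell that loses pluripotency factors closes some enhancers and opens others, many of which belong to the genes of early lineages.

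A few NanogKO-only regions lie on promoters, and 5 of these are shown because they span the kinds of sequence seen. The stretches are the 250 bases before the annotated start, from RefSeq on GRCm38.p6, read 5′ to 3′ on the gene's strand, with CG dinucleotides, the sites of DNA methylation, in capitals. Meg3 is a maternally expressed noncoding RNA (chr12:109540746-109540995, plus strand). Eps8l1 (chr7:4464599-4464848, plus strand) encodes a relative of the actin regulator EPS8, Upk3bl (chr5:136057017-136057266, plus strand) is named as a uroplakin-like gene, and 1810019D21Rik (chr8:106135150-106135399, plus strand) has no established function. Neurod1 (chr2:79456637-79456886, minus strand) encodes a neuronal basic helix-loop-helix factor.
Meg3: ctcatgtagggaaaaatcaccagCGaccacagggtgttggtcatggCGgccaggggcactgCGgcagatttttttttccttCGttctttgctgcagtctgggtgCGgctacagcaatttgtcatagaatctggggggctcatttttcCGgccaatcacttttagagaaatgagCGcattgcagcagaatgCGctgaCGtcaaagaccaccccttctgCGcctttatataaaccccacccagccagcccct
Eps8l1: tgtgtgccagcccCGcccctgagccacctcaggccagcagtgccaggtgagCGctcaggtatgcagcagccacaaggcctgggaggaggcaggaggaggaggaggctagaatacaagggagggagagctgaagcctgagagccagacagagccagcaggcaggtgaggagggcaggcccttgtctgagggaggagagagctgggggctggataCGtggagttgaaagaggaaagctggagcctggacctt
Upk3bl: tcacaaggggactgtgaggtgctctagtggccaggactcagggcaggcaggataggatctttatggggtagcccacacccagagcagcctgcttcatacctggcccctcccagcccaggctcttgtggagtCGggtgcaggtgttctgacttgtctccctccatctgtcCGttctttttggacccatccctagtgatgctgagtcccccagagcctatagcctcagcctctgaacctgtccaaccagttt
1810019D21Rik: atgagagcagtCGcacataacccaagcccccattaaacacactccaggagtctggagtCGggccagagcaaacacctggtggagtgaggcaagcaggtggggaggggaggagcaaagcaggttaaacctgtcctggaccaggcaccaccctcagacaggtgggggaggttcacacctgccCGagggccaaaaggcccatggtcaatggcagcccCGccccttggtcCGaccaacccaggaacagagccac
Neurod1: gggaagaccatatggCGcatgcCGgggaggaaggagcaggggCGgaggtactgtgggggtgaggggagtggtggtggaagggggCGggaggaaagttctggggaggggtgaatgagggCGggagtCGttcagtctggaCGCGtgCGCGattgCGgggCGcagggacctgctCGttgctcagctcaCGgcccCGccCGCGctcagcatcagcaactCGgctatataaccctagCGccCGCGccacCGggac

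The stretch before Meg3 holds 10 CG dinucleotides, those before Eps8l1, Upk3bl and 1810019D21Rik hold 3, 2 and 5, and that before Neurod1 holds 22. The NanogKO-only region covers 71 of the 250 bases at Meg3, 193 at Upk3bl, 227 at Neurod1 and all 250 at Eps8l1 and 1810019D21Rik. Meg3 and Neurod1 were added after their values were seen, and the other 3 come from the 8 promoter regions with the highest NanogKO level.

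Mature microRNAs encoded inside NanogKO-only regions are shown for the 2 hairpins of the Dlk1-Meg3 domain described further on and for let-7g, a member of the let-7 family that LIN28A blocks. Capitals mark the seed, bases 2 to 8, which pairs with target messages.
mmu-miR-431-5p: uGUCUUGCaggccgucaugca
mmu-miR-431-3p: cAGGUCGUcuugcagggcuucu
mmu-miR-540-5p: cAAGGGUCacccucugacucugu
mmu-miR-540-3p: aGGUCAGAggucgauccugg
mmu-let-7g-5p: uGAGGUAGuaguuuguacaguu
mmu-let-7g-3p: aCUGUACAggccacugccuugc

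No seed is shared among these 6, and 8 annotated hairpins in all touched a NanogKO-only region. The region over Mir431 (chr12:109590300-109590797) had 2.98, 2.90 and 2.70 CPM (the count scaled to library size, with TMM factors) in NanogKO, 1.07, 0.553 and 0.765 in NanogKO:Esrrb, then 0.829, 0.704 and 0.761 in NanogKO:Esrrb:Nanog. Its NanogKO libraries stood apart from the other 6. The region over Mirlet7g (chr9:106178797-106178978) had 1.24, 1.23 and 1.26 CPM in NanogKO, 0.715, 1.16 and 1.15 in NanogKO:Esrrb, then 0.933, 0.998 and 1.37 in NanogKO:Esrrb:Nanog, so its groups overlapped.

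Counts in regions summed to between 35545030 and 58520948 per library. On the second principal component of all regions, NanogKO:Esrrb:Nanog replicate 3 stood at 5.48 while the group's other libraries stood at 87.6 or above. The labelled cell type was checked at Pou5f1 and Sox2, the genes of core pluripotency factors. The strongest region at Pou5f1 stepped with the groups, from 20.4 to 26 CPM in NanogKO to 31.1 to 35 in NanogKO:Esrrb and 50.6 to 56.3 in NanogKO:Esrrb:Nanog, and its part in the results was not tested. The strongest at Sox2 had 33.6 to 38.7 CPM in NanogKO, 42.8 to 55 in NanogKO:Esrrb and 44.0 to 49.5 in NanogKO:Esrrb:Nanog. The strongest region at Gata6, a gene of primitive endoderm, had 20.6 to 32.0 CPM over all libraries. At Sox17, also an endoderm gene, the strongest had 88.2 to 97.9, 68.0 to 83.4 and 66.8 to 78.2 CPM in the same order of groups. Regions at genes of another lineage were thus open too. The part of these differences in the results was not tested. Fewer cells with an open region and less opening per cell cannot be told apart in these bulk libraries.

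NanogKO-only regions were short and weak. Their median length was 182 bp, against 345 bp for all regions and 511 bp for the 87109 regions present in all 3 lists, and 639 were under 50 bp. Per kilobase of region, the median level was 7.95 to 8.57 CPM in NanogKO, 3.88 to 4.2 in NanogKO:Esrrb and 3.02 to 3.70 in NanogKO:Esrrb:Nanog. The same medians over all regions were 8.84 to 9.16, 8.74 to 9.18 and 8.89 to 9.52, so in NanogKO itself the regions sat slightly below the typical counted region. Together they took up 2.98% to 3.31% of counts in the NanogKO libraries, 1.5% to 1.63% in NanogKO:Esrrb and 1.21% to 1.46% in NanogKO:Esrrb:Nanog.

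The median NanogKO-only region had 1.49, 1.6 and 1.52 CPM in the NanogKO libraries, 0.775, 0.821 and 0.800 in NanogKO:Esrrb, then 0.581, 0.616 and 0.709 in NanogKO:Esrrb:Nanog. The medians of the 3 groups did not overlap and descended in that order. Median log2 fold changes were -0.85 for NanogKO:Esrrb and -1.15 for NanogKO:Esrrb:Nanog, both against NanogKO, where the median of all regions was -0.01. These values are a description with no test, since the NanogKO libraries chose the regions.

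**Figure D1:**
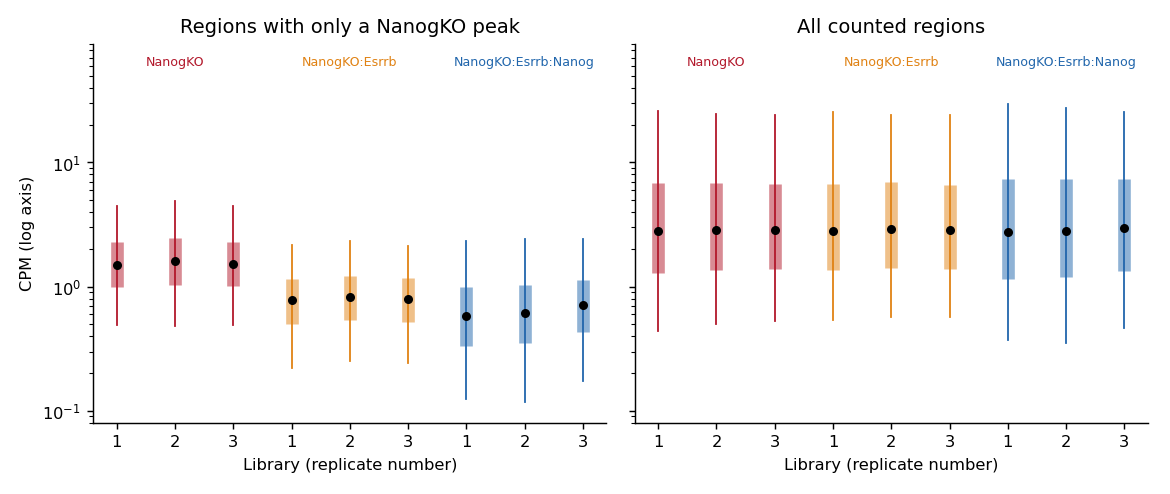
CPM in each library (log axis) for NanogKO-only regions (left) and all counted regions (right); dots are medians, thick bars the middle 50% and thin lines the 5th to 95th percentile of regions, not an error. The NanogKO medians of the left panel (1.49 to 1.6) lie above those of both other groups (0.581 to 0.821), while the medians on the right run from 2.74 to 2.96.

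The order was far from uniform among the regions. All 3 NanogKO libraries exceeded all 6 others in 10252 NanogKO-only regions (63.8%), where 17.8% of all counted regions did so. In means, 10794 regions (67.1%) followed NanogKO above NanogKO:Esrrb above NanogKO:Esrrb:Nanog, and 3735 (23.2%) put NanogKO:Esrrb lowest. In 755 regions NanogKO:Esrrb:Nanog was highest and NanogKO:Esrrb lowest, and in 221 the means ascended from NanogKO through NanogKO:Esrrb to NanogKO:Esrrb:Nanog. All 3 NanogKO:Esrrb:Nanog libraries exceeded all NanogKO libraries in 250 regions (1.56%, against 26.7% of all regions), although the list named for that group holds no peak there. The median coefficient of variation between replicates was 14.4% in NanogKO, 21.4% in NanogKO:Esrrb and 27.1% in NanogKO:Esrrb:Nanog. In regions of all 3 lists, where the groups had like levels, it was 9.89%, 9.9% and 13.1%.

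The comparison of NanogKO:Esrrb:Nanog with NanogKO:Esrrb asks what differed between the coded lines with and without Nanog beside Esrrb. It compared no NanogKO level, but all 9 libraries, those of NanogKO among them, shared the filter, the scaling and the estimate of spread. The lists named for both groups also entered the choice of regions by keeping peaks out. The balance of calls over the regions is therefore a description, and so are the calls and p-values of single regions below. Keeping out regions with a NanogKO:Esrrb peak favours low levels in that group, and with them rises from it. Of 16057 tested regions, 607 were higher (3.78%) and 2426 lower (15.1%), where 12.6% of all regions tested were higher and 12.0% were lower. Their median log2 fold change was -0.28, against -0.01 for all regions and 0.06 for regions in all 3 lists. A value above 0 was found in 29.5% of them and in 49.1% of all regions. That balance depended on the third list. The 3933 regions left out by that list alone had 16.6% higher and 0.966% lower, and with them included, 6.31% of regions were higher and 12.3% lower, the latter close to the 12.0% of all regions.

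These calls used edgeR's quasi-likelihood test at a Benjamini-Hochberg adjusted p under 0.05 over all regions, and 19 regions failed the filter on low counts. The median log2 fold change of called regions was 0.90 for those higher and -1.08 for those lower, and 247 and 1461 of them exceeded 2-fold. A fit of these 2 groups alone, with no NanogKO library, gave 522 higher and 1803 lower. A fit of all 9 libraries with replicate number as a block gave 681 and 2700. Without NanogKO:Esrrb replicate 3 the counts were 352 higher and 1503 lower, and 1436 and 1579 were lower without NanogKO:Esrrb:Nanog replicates 1 and 2.

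**Figure D2:**
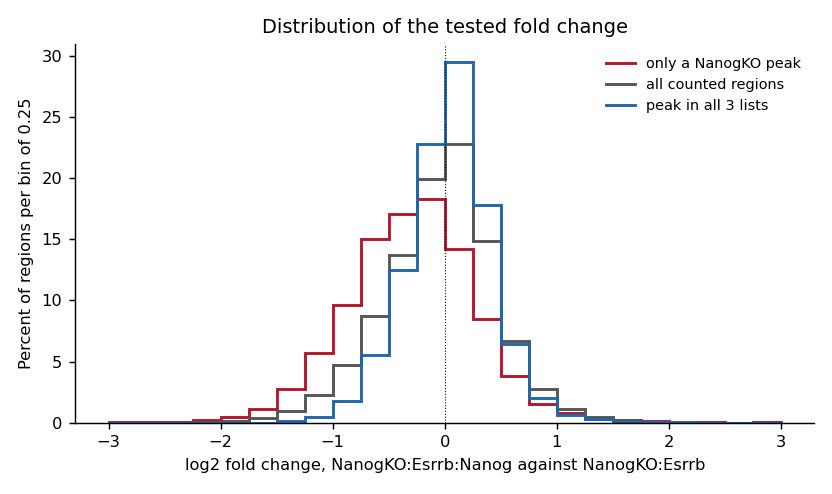
Log2 fold change of NanogKO:Esrrb:Nanog against NanogKO:Esrrb (x axis, bins of 0.25, with values beyond the axis in the end bins) and the percent of regions in each bin (y axis), for NanogKO-only regions, all counted regions and regions in all 3 lists. The NanogKO-only curve is shifted to the left, with a median of -0.28 against -0.01 for all regions.

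Both kinds of call differed in their levels in NanogKO. Regions called higher had median levels of 2.06 CPM in NanogKO, 1.01 in NanogKO:Esrrb and 2.11 in NanogKO:Esrrb:Nanog. Of these 607 regions, 353 had a mean in NanogKO:Esrrb:Nanog above that of NanogKO, and 132 had all 3 libraries above. Among all NanogKO-only regions these shares were 6.76% and 1.56%. Over all counted regions, all 3 libraries stood above in 26.7%. The fitted log2 fold change against NanogKO was above 0 in 49.5% of all regions tested. Regions called lower went down in steps, with medians of 1.83, 0.898 and 0.419 CPM, and in 0 of the 2426 was the mean of NanogKO:Esrrb:Nanog above that of NanogKO. Choosing regions by a NanogKO peak and then by a fall favours such steps, so they are a description. Regions called higher lay in a gene in 56.8% of cases and those called lower in 43.4%, with median lengths of 162 and 226 bp.

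Longer regions were called lower more often. Split at the quartiles of length, the shortest class had 8.91% lower and 4.17% higher, and the longest had 24.2% lower and 2.81% higher. Median NanogKO levels of these classes were 0.925 and 2.48 CPM, so they differ in depth as well, and the part of depth in the shares was not tested. Split at the quartiles of the authors' peak score, calls in both directions were more frequent in the highest class than in the lowest, with 221 of 4016 against 96 of 4257 higher and 768 against 537 lower.

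The 10 regions with the highest NanogKO level, at most 1 per nearest gene, had 13.2 to 27 CPM in the NanogKO libraries. The strongest lay in Knop1 (chr7:118848663-118849372) with 24.1, 22.9 and 23.2 CPM in NanogKO, 2.36, 2.36 and 3.41 in NanogKO:Esrrb, then 1.12, 1.94 and 1.92 in NanogKO:Esrrb:Nanog. A region in Fank1 (chr7:133846795-133847523) had 23.0, 21.7 and 18.3 CPM, then 2.25, 1.96 and 3.17, then 0.954, 0.939 and 1.38 in the same order of groups. At both, no library of a group overlapped another group, and the step between NanogKO:Esrrb and NanogKO:Esrrb:Nanog passed the test, with log2 fold changes of -0.72 ± 0.19 (SE, adjusted p = 0.0073) and -1.14 ± 0.20 (adjusted p = 0.00023). The Knop1 call was lost without NanogKO:Esrrb replicate 3 (adjusted p = 0.073 by edgeR) or NanogKO:Esrrb:Nanog replicate 1 (adjusted p = 0.067).

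A region between 1520401A03Rik and Cldn6, which encodes a claudin of tight junctions (chr17:23694314-23695168), had 17.8, 17.0 and 20.7 CPM in NanogKO, 1.03, 1.27 and 0.905 in NanogKO:Esrrb, then 0.892, 0.822 and 0.830 in NanogKO:Esrrb:Nanog. Its mean in NanogKO was 17.3-fold that of NanogKO:Esrrb and 21.8-fold that of NanogKO:Esrrb:Nanog. Regions in Cit, the gene of citron kinase of cytokinesis (chr5:115858541-115858964), and in Arrdc1, an arrestin-domain adaptor (chr2:24928100-24928686), were 11.2-fold and 7.63-fold higher in NanogKO than in NanogKO:Esrrb. At the other end of these 10 regions, the one near Ptma, the gene of prothymosin alpha (chr1:86530980-86531478), had 25, 22.5 and 19.5 CPM in NanogKO, 11.8, 11.5 and 12.3 in NanogKO:Esrrb, then 9.16, 10.1 and 14.4 in NanogKO:Esrrb:Nanog. Although no peak was listed there outside NanogKO, its level in the other lines was well above that of the median counted region. The region in Ssh1, the gene of a cofilin phosphatase (chr5:113958574-113959341), likewise kept 3.82 to 4.64 CPM in the other 6 libraries.

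**Figure D3:**
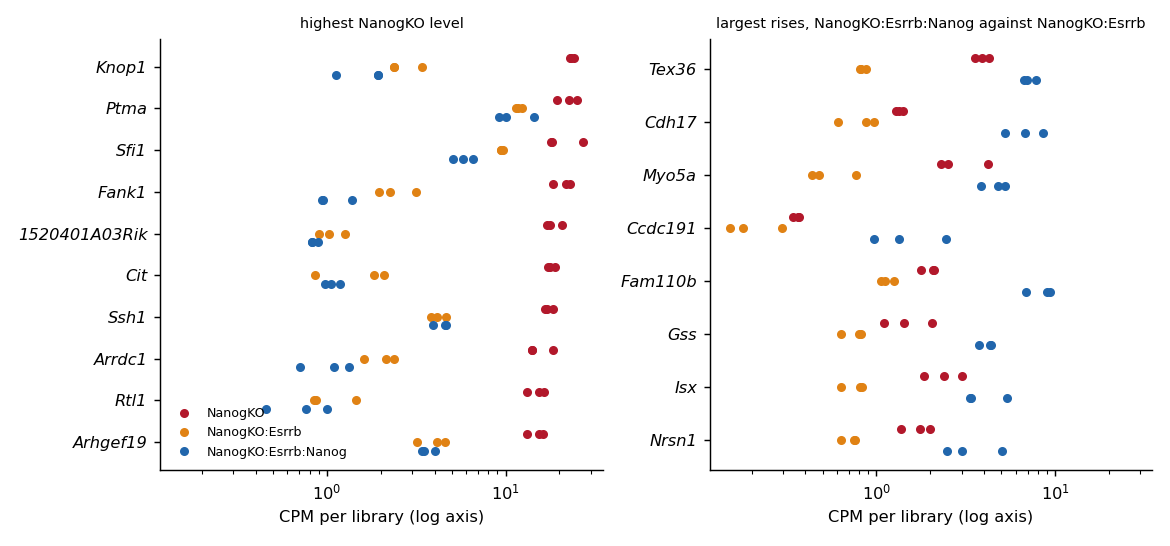
CPM in each library (log axis) for the 10 NanogKO-only regions with the highest NanogKO level (left, by nearest gene) and the 8 with the largest rises in NanogKO:Esrrb:Nanog against NanogKO:Esrrb (right); each dot is 1 library. On the left the NanogKO dots lie to the right of all others, and on the right the NanogKO:Esrrb dots lie lowest.

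The deepest losses reached the floor of detection. On chromosome X, a region 301543 bp from Bcor, the gene of a BCL6 corepressor (chrX:11734560-11735194), had 166, 226 and 216 counts in the NanogKO libraries and 0 in all 6 others. Against a floor of 3 counts over a group, NanogKO:Esrrb lay at least 234-fold lower there, and for NanogKO:Esrrb:Nanog the bound was at least 196-fold lower. A further NanogKO-only region 217 bp away had 112, 158 and 131 counts in NanogKO and 0 in the other 6. These were the 2 NanogKO-only regions with 0 counts in all 6 libraries. The nearest other counted regions, 68.8 kb and 68.0 kb away on either side, had totals of 275, 231 and 232 counts and of 980, 1661 and 2044 counts in NanogKO, NanogKO:Esrrb and NanogKO:Esrrb:Nanog. Both groups at 0 share their cell line name, so a difference between lines in the DNA itself and a difference in accessibility cannot be told apart here.

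Other deep losses kept a few counts. A region in Plch1, the gene of a phospholipase C (chr3:63723519-63723866), had 7.22, 7.62 and 7.50 CPM in NanogKO, 0.238, 0.218 and 0.313 in NanogKO:Esrrb, then 0.166, 0.0587 and 0.242 in NanogKO:Esrrb:Nanog. The region near Frmd7 on chromosome X (chrX:50968551-50968967) was similar, with 5.09 to 6.49 CPM in NanogKO and 0.0829 to 0.218 CPM elsewhere. At these 2 regions almost all of the difference lay between NanogKO and the other groups. By contrast, the region in Dscam, the gene of a neuronal adhesion protein (chr16:96783689-96783956), had 1.83, 3.44 and 3.02 CPM in NanogKO, 0.278, 0.938 and 0.539 in NanogKO:Esrrb, then 0.0829, 0 and 0.0692 in NanogKO:Esrrb:Nanog. It fell again between NanogKO:Esrrb and NanogKO:Esrrb:Nanog, by 3.33 ± 0.56 on the log2 scale (SE, adjusted p = 0.00015), to 8 counts over 3 libraries.

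Among regions called lower in NanogKO:Esrrb:Nanog against NanogKO:Esrrb, the 8 largest falls lay in or nearest to Trim67, Gm30733, Dscam, Scnn1a, Dnah5, Itpr2, Myof and Rbms3. Those at Trim67, Dnah5 and Myof are only 30, 6 and 15 bp long and rest on few counts: at Trim67 the 3 libraries of NanogKO:Esrrb held 23 counts in total and those of NanogKO:Esrrb:Nanog 0, so its fitted fold change is no bound. The other 7 log2 fold changes ran from -3.43 to -2.87. The region in Itpr2, which encodes a calcium channel of the endoplasmic reticulum (chr6:146159639-146159767), had 39 counts in NanogKO:Esrrb and 4 in NanogKO:Esrrb:Nanog (log2 fold change -2.90 ± 0.72, SE, adjusted p = 0.0049). The region in Dnah5 missed the threshold without NanogKO:Esrrb replicate 3 or without NanogKO:Esrrb:Nanog replicate 1, and that in Rbms3 without NanogKO:Esrrb replicate 2.

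The 8 largest rises between the same groups lay in or nearest to Tex36, Cdh17, Myo5a, Ccdc191, Fam110b, Gss, Isx and Nrsn1. The region near Tex36 (chr7:133576982-133577241) had 3.90, 3.58 and 4.26 CPM in NanogKO, 0.874, 0.804 and 0.818 in NanogKO:Esrrb, then 6.70, 6.92 and 7.83 in NanogKO:Esrrb:Nanog, a log2 fold change of 3.10 ± 0.18 (SE, adjusted p = 5.2e-11). The region in Myo5a, which encodes a motor of vesicle transport (chr9:75085156-75085417), had 2.51, 4.21 and 2.31 CPM in NanogKO, 0.477, 0.770 and 0.435 in NanogKO:Esrrb, then 3.86, 4.81 and 5.24 in NanogKO:Esrrb:Nanog (3.03 ± 0.26, adjusted p = 1.3e-08). Both were lowest in NanogKO:Esrrb, with NanogKO between. Those in Cdh17, the gene of an intestinal cadherin (chr4:11769539-11769683), and near Fam110b (chr4:5805040-5805330) were 1.64-fold and 1.73-fold higher in NanogKO than in NanogKO:Esrrb and rose above both in NanogKO:Esrrb:Nanog. The Cdh17 region had 1.29, 1.4 and 1.34 CPM in NanogKO, 0.974, 0.871 and 0.609 in NanogKO:Esrrb, then 5.25, 6.75 and 8.49 in NanogKO:Esrrb:Nanog (3.07 ± 0.22, adjusted p = 8.4e-10). The Ccdc191 region is 23 bp long. All 8 were picked as the largest calls among regions kept for lacking a NanogKO:Esrrb peak, so their rises are a description.

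Among regions at or above the median NanogKO level, the 5 with the highest ratio of NanogKO:Esrrb:Nanog to NanogKO lay near or in Fam110b, Glud1, Epha4, Scpep1 and Galnt17, and all 5 were also called higher than in NanogKO:Esrrb. In Glud1, the gene of glutamate dehydrogenase (chr14:34316478-34316710), NanogKO had 1.85, 1.82 and 1.97 CPM, NanogKO:Esrrb had 2.40, 2.28 and 1.55, and NanogKO:Esrrb:Nanog had 5.27, 6.78 and 7.06. In Epha4, which encodes an ephrin receptor (chr1:77473956-77474097), the groups stood in steps, with 1.83, 2.50 and 1.84, then 4.03, 4.24 and 2.75, then 5.23, 7.42 and 5.53 CPM. At this region NanogKO was the lowest of the 3 groups in every library, although its list alone held the peak. The Epha4 rise between the last groups (0.72 ± 0.19, SE, adjusted p = 0.0075) missed the threshold without NanogKO:Esrrb replicate 3 or NanogKO:Esrrb:Nanog replicate 2.

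NanogKO-only regions were assigned to 19 gene lists by lying in or within 50 kb of a listed gene, and their share of all regions there was set against 10.2% overall. The naive pluripotency list (genes of the undifferentiated ground state) had 19 of 461 regions (4.12%), general pluripotency genes 20 of 312 (6.41%), LIF and STAT3 targets 25 of 371 (6.74%), and NODAL and BMP signalling genes 24 of 474 (5.06%). Trophoblast genes had 37 of 298 (12.4%), germline genes 20 of 194 (10.3%) and genes of the cell adhesion switch 29 of 285 (10.2%). Within 50 kb, the lowest shares were those of the naive pluripotency list and the NODAL and BMP list, and only the trophoblast and germline lists stood above the overall share. This order depended on the distance: within 10 kb, LIF and STAT3 targets had the lowest share (2.55%), and WNT targets (11.2%), endothelium and blood (11.4%) and cell adhesion (10.9%) stood above the overall share as well. Position bears on this yardstick: 79.35% of NanogKO-only regions lay in or within 50 kb of a protein-coding gene, against 85.08% of all regions. Their share near genes of any kind is thus below 10.2%, and the list shares were not adjusted for this. No test was made of these shares, and lists share genes and regions.

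Near naive pluripotency genes, 0 of the 19 NanogKO-only regions were higher and 4 were lower in NanogKO:Esrrb:Nanog than in NanogKO:Esrrb, with a median log2 fold change of -0.50. Over all NanogKO-only regions 3.78% were higher and 15.1% lower, and over all regions 12.6% and 12.0%. With so few regions, the counts here lie near the shares of all NanogKO-only regions. In the lists that follow some counts lie further off, such as 7 of 20 lower near mesendoderm genes and 3 of 23 higher near neural genes. These departures were not tested. A region called lower lies 16012 bp from Pecam1, the gene of the adhesion molecule on which the cells were sorted (chr11:106637819-106638201). It had 9.34, 9.94 and 10.6 CPM in NanogKO, 3.58, 2.23 and 2.26 in NanogKO:Esrrb, then 1.58, 0.998 and 1.16 in NanogKO:Esrrb:Nanog (-1.09 ± 0.21, SE, adjusted p = 0.00054). Other regions near the gene were not examined one by one. Near general pluripotency genes, a region in Lin28a, which encodes the RNA-binding inhibitor of let-7 (chr4:134006906-134007144), had 11.1, 10.3 and 10.5 CPM, then 1.31, 0.938 and 1.76, then 0.456, 0.469 and 1.04 in the same order. A region 4681 bp from Spef1l and 21810 bp from Utf1, the gene of a chromatin factor of pluripotent cells, went from 8.04 ± 1.06 CPM (SD, n = 3) to 3.00 ± 0.567 and 1.64 ± 0.208. The last step was called lower at both, with log2 fold changes of -0.97 and -0.88, and at Lin28a it was lost without NanogKO:Esrrb replicate 3 or without either of NanogKO:Esrrb:Nanog replicates 1 and 2.

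Lists of lineage genes differed in their calls, and differences between lists were not tested. Mesendoderm genes had 20 regions with 0 higher and 7 lower, primitive endoderm genes 27 with 0 and 4, trophoblast genes 37 with 3 and 4, and neural genes 23 with 3 higher and 1 lower, in NanogKO:Esrrb:Nanog against NanogKO:Esrrb. In a region inside Tmem63a and 15394 bp from Lefty1, which encodes an inhibitor of NODAL (chr1:180953795-180954463), levels were 5.0, 5.22 and 5.58 CPM in NanogKO, 1.75, 1.59 and 1.55 in NanogKO:Esrrb, then 0.560, 0.763 and 0.623 in NanogKO:Esrrb:Nanog. In a region 369 bp from Tlcd3b and 27783 bp from Tbx6, a T-box gene of paraxial mesoderm (chr7:126813331-126813672), they were 9.02, 7.57 and 8.07, then 2.13, 1.74 and 2.80, then 0.788, 0.910 and 1.00. These 2 regions descended in the order of the groups with no overlap, and the last step passed the test (-1.34 ± 0.22 and -1.30 ± 0.21, SE, adjusted p = 0.00011 and 0.0001).

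Neural genes included regions that did the opposite. Near En2, an engrailed homeobox gene (chr5:28176634-28176837), NanogKO had 4.59, 5.75 and 5.86 CPM, NanogKO:Esrrb 1.49, 1.24 and 1.08, and NanogKO:Esrrb:Nanog 2.59, 2.26 and 3.63, a rise of 1.17 ± 0.21 between the last groups (SE, adjusted p = 0.00028). At the Neurod1 promoter, shown above for its many CG dinucleotides (chr2:79456660-79456963), the levels were 5.39, 5.07 and 4.85, then 4.57, 3.89 and 3.39, then 7.40, 8.42 and 5.31 CPM (0.83 ± 0.17, adjusted p = 0.001). The Neurod1 groups of NanogKO and NanogKO:Esrrb:Nanog overlapped. Among trophoblast genes, a region in Fgfr2, the gene of an FGF receptor (chr7:130176910-130177405), had 8.17, 11 and 6.26 CPM in NanogKO and 0.605 to 0.974 CPM in the other 6 libraries.

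Signalling lists varied in how often NanogKO:Esrrb:Nanog stood high, which held for 6.76% of all NanogKO-only regions. The choice of regions by a NanogKO peak favours a low share. Of all regions tested, 49.5% had a fitted log2 fold change against NanogKO above 0. Differences between the lists in these numbers were not tested. Of the 25 regions near LIF and STAT3 targets, 8 had a mean in NanogKO:Esrrb:Nanog above that of NanogKO, and so had 6 of the 29 near ERK feedback genes, 1 of the 25 near WNT targets, 1 of the 19 near FGF ligands and receptors and 2 of the 27 near Notch genes. Among housekeeping genes, which are no signalling list, 6 of 32 did. A region 27230 bp from Mrpl42 and 36055 bp from Socs2, a feedback inhibitor of cytokine signalling (chr10:95453376-95453575), nevertheless had 7.41, 7.22 and 8.58 CPM in NanogKO, 2.38, 2.50 and 2.44 in NanogKO:Esrrb, then 0.975, 1.41 and 1.26 in NanogKO:Esrrb:Nanog (-1.01 ± 0.19, SE, adjusted p = 0.00044). A region 1855 bp from Myc (chr15:61983351-61983486) was nearly level, with 8.05, 7.24 and 6.22 CPM in NanogKO, 7.09, 6.68 and 6.21 in NanogKO:Esrrb, then 9.58, 8.86 and 7.75 in NanogKO:Esrrb:Nanog. Its call in the last comparison (0.39 ± 0.14, adjusted p = 0.045) was lost when any single library of these groups but NanogKO:Esrrb:Nanog replicate 3 was left out, and under library totals, TMM factors from shared regions, or a fit of these 2 groups alone. For Notch signalling, 0 of 27 regions were higher and 3 lower, no more than the shares above give, among them those near Rbpj, the gene of the pathway's DNA-binding factor (-1.09 ± 0.20, adjusted p = 0.00033) and Dll4, a ligand whose region is 195 bp from Chac1 (-0.85 ± 0.27, adjusted p = 0.024). The Dll4 call was lost with DESeq2 and without NanogKO:Esrrb replicate 1, NanogKO:Esrrb replicate 3 or NanogKO:Esrrb:Nanog replicate 2.

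Markers of other cell types held NanogKO-only regions as well, and the endothelial list includes Pecam1. Fibroblast markers had 15 of 179 regions (8.38%), with 2 higher and 2 lower in NanogKO:Esrrb:Nanog against NanogKO:Esrrb, and markers of endothelium and blood had 28 of 288 (9.72%), with 1 higher and 3 lower. In a region inside Usp2 and 39438 bp from Thy1, the gene of a surface protein of fibroblasts (chr9:44088017-44088404), levels were 9.17, 9.55 and 8.33 CPM in NanogKO and 1.59 to 2.30 CPM in the other 6 libraries. Housekeeping genes had 32 of 322 (9.94%), of which 7 were lower, where 15.1% of all NanogKO-only regions and 12.0% of all regions were lower. Formative and primed pluripotency genes had 34 of 362 (9.39%) with 5 lower, AP-1 and TEAD genes 33 of 420 (7.86%) with 4 higher and 1 lower, FGF ligands and receptors 19 of 242 (7.85%), and WNT targets 25 of 296 (8.45%). The adhesion and germline lists each had 1 higher and 4 lower.

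The Nanog and Esrrb loci each held NanogKO-only regions nearby. The region 12727 bp from Nanog (chr6:122694607-122694762) had 1.68, 1.14 and 1.48 CPM in NanogKO, 1.15, 1.88 and 1.22 in NanogKO:Esrrb, then 1.08, 0.968 and 1.19 in NanogKO:Esrrb:Nanog, with overlapping groups. The region in Esrrb (chr12:86429379-86429562) had 2.56, 3.53 and 2.49, then 0.556, 1.29 and 0.818, then 0.581, 0.645 and 0.623 CPM. Elsewhere in and within 10 kb of Esrrb, the strongest counted region ran the other way, with 18.2 to 19.7 CPM in NanogKO, 28 to 39.9 in NanogKO:Esrrb and 54.6 to 67.2 in NanogKO:Esrrb:Nanog. The strongest in or within 10 kb of Nanog was likewise lowest in NanogKO. It had 43.7 to 49.6 CPM there, 62.0 to 69.7 in NanogKO:Esrrb and 60.6 to 83.9 in NanogKO:Esrrb:Nanog.

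Some genes and windows held many NanogKO-only regions, and whether they cluster was not tested. The gene with the highest share among those with 15 or more regions within 50 kb was Rtl1, with 14 of 22 (63.6%), followed by Cldn11, the gene of a claudin of myelin and testis, with 10 of 19 (52.6%), and Glis3, a zinc finger gene, with 12 of 26 (46.2%). In absolute number, Snx29 led with 17 of 61, ahead of Dpp6 with 16 of 65, and these genes span 436235 and 910144 bp. Of the 1 Mb windows, chr7:34000001-35000000 held 26 of 154 (16.9%), chr12:109000001-110000000 held 25 of 85 and chr4:150000001-151000000 held 25 of 183 (13.7%). The share over all counted regions was 10.2%. The window on chromosome 12 thus had the highest share of the 3, at 29.4%.

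That window holds the imprinted Dlk1-Meg3 domain, in which Dlk1, Rtl1 and Dio3 are expressed from the paternal chromosome and the noncoding RNAs Meg3, Rian and Mirg, with many microRNAs, from the maternal one, under the control of differentially methylated DNA between Dlk1 and Meg3 and at Meg3. From 50 kb before Dlk1 to 50 kb after Mirg, 21 of 37 counted regions were NanogKO-only. In all 21 the NanogKO libraries exceeded the other 6, and so they did in 9 of the other 16 regions. This held for 63.8% of all NanogKO-only regions, whose choice favours it, and for 17.8% of all counted regions. NanogKO means were 2.13-fold to 14.1-fold those of NanogKO:Esrrb and 1.48-fold to 20.3-fold those of NanogKO:Esrrb:Nanog over the 21.

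The highest of them, 11.5 kb before the first base of Meg3 (chr12:109529082-109529948), had 16.3, 15.4 and 13.2 CPM in NanogKO, 1.45, 0.871 and 0.852 in NanogKO:Esrrb, then 0.456, 0.998 and 0.761 in NanogKO:Esrrb:Nanog. The next, 1.9 kb before Meg3 (chr12:109538837-109539395), had 10.3, 11.5 and 11.8, then 1.51, 1.72 and 1.06, then 1.43, 0.822 and 1.47 CPM. The region over the Meg3 start, whose promoter is printed above (chr12:109540925-109541194), had 3.17, 3.40 and 2.72, then 0.258, 0.352 and 0.365, then 0.207, 0.323 and 0.208 CPM. In these 3 regions both other groups lay far below NanogKO and overlapped each other. Further regions followed inside Rtl1, over Mir431 and Mir540, and inside Rian up to 99.8 kb past the Meg3 start. At the Dlk1 gene itself, the counted regions were present in all 3 lists or in the third alone. The one over its first bases (chr12:109452802-109453333) had means of 7.45, 6.48 and 8.24 CPM.

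Between NanogKO:Esrrb and NanogKO:Esrrb:Nanog, 1 of the 21 was called higher and 2 lower, all of them before Dlk1, and the median log2 fold change was -0.17. The domain was picked for its many NanogKO-only regions after their number was seen, so its share is a description. Whether both parental chromosomes were open was not measured.

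**Figure D4:**
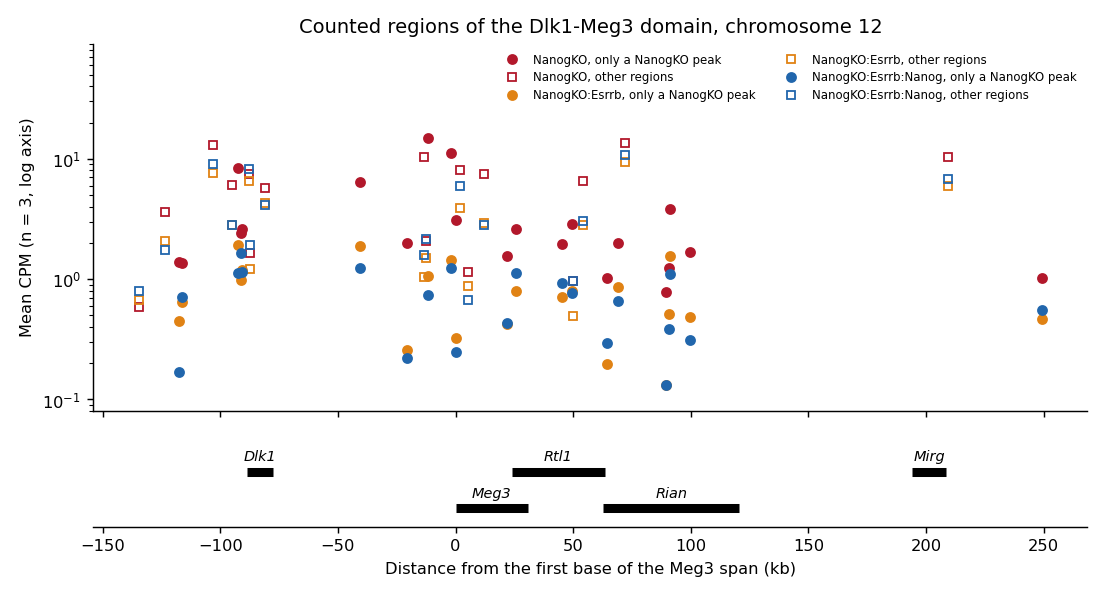
Mean CPM of the 3 libraries of each group (log axis) for the 37 counted regions of the Dlk1-Meg3 domain by distance from the first base of Meg3 (kb), with gene spans below; filled circles are the 21 NanogKO-only regions and open squares the other 16. The red circles near 0 kb reach 15 CPM at 11.5 kb before Meg3, where the other groups have 1.06 and 0.738 CPM.

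NanogKO-only regions lay farther from genes than other counted regions. Of them, 48.6% were in a protein-coding gene and 14.0% over 100 kb from one, against 55.7% and 9.32% of all regions. Within 1 kb of either end of a protein-coding gene span, starts included, lay 5.85%, against 14.8% of all regions and 21.3% of those in all 3 lists. Within 1 kb of an annotated start alone lay 2.79%, 10.25% and 16.0% of these sets. By chromosome their share of counted regions ran from 8.88% on chromosome 17 to 12.4% on chromosome X and 12.3% on chromosome 12. Of the 448 within 1 kb of an annotated start, 6.92% were higher and 9.60% lower in NanogKO:Esrrb:Nanog against NanogKO:Esrrb. Those between genes had 3.12% higher and 16.7% lower. Among all counted regions, those near a start had 17.1% higher and 3.52% lower, and those between genes 10.8% higher and 15.6% lower. Calls in the higher direction were thus more frequent near starts in both sets, but near starts lower calls outnumbered higher ones among NanogKO-only regions and not among all regions. Starts were taken from a RefSeq table that is not complete.

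**Figure D5:**
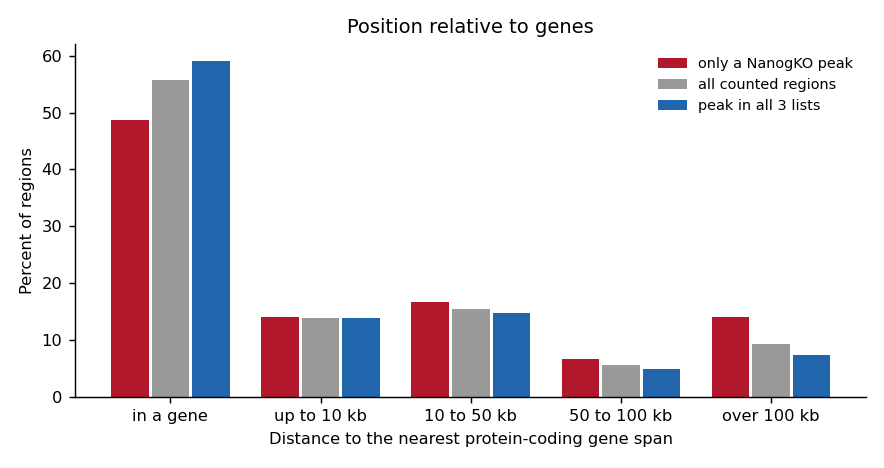
Percent of regions (y axis, from 0) by distance to the nearest protein-coding gene span, for NanogKO-only regions, all counted regions and regions in all 3 lists. NanogKO-only regions are fewest in genes (48.6%) and most numerous beyond 100 kb (14.0%).

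Promoters touched by NanogKO-only regions were poor in CG dinucleotides. Windows from 250 bases before to 50 bases after a start, 32851 in all, were touched by 237 NanogKO-only regions. With 1 window per region, the ratio of observed to expected CG dinucleotides had a median of 0.256, against 0.384 in all windows and 0.728 in the 12596 touched by regions of all 3 lists. A ratio above 0.6 was found in 7.17%, 35.8% and 66.6%. Median GC content was 52.0%, 52.7% and 61.0%, so the gap from all windows was in the dinucleotide and hardly in base composition.

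Short motifs were counted on both strands of these windows. CAGCAGG, letters bound by ZIC factors, was in 24.5% of the touched windows, in 10.5% of all windows and in 11.3% of those touched by shared regions. CAGGTG, the E-box read by ZEB and SNAI repressors, was in 29.1%, 20.2% and 19.7%, and a match of the first motif can run into one of the second. GGAATGT, read by TEAD factors, was in 8.44%, 3.85% and 2.70%. The motif CCGGAAG of ETS factors, common in CG-rich promoters, was in 2.95%, 8.86% and 15.2%. The ESRRB motif TCAAGGTCA was in 0 of 237, against 0.423% of all windows, which says only that these letters were not in these windows. Of the stretches printed above, Eps8l1 holds 2 matches of CAGGTG and 1 of CAGCAGG, and 1810019D21Rik holds 4 of CAGGTG. In all, 24 motifs were searched, and matches are descriptions of letters.

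The printed promoters differed in level too. At Upk3bl (chr5:136057074-136057404), with 2 CG dinucleotides, NanogKO had 9.58, 8.36 and 9.91 CPM, NanogKO:Esrrb had 0.676, 0.586 and 0.765, and NanogKO:Esrrb:Nanog had 0.664, 0.704 and 0.916. At Eps8l1 (chr7:4464588-4465435), NanogKO had 7.63, 7.95 and 7.38 CPM and the other 6 libraries 1.39 to 2.00. At 1810019D21Rik (chr8:106135054-106135406), NanogKO had 12.6, 10.7 and 11 CPM, NanogKO:Esrrb 3.56, 3.90 and 3.36, and NanogKO:Esrrb:Nanog 4.52, 5.22 and 5.07. The rise between the last groups was called at 1810019D21Rik (0.45 ± 0.15, SE, adjusted p = 0.026), though not without NanogKO:Esrrb replicate 1, NanogKO:Esrrb replicate 3 or NanogKO:Esrrb:Nanog replicate 2, nor under library totals or a fit of these 2 groups alone. At Upk3bl and Eps8l1 the last groups overlapped, with log2 fold changes of 0.19 ± 0.23 (adjusted p = 0.58) and 0.08 ± 0.19 (adjusted p = 0.8).

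The rule's limits are soft. The 1063 NanogKO-only regions with peak scores of 13 to 30, the lowest, had median levels of 0.707, 0.468 and 0.359 CPM in NanogKO, NanogKO:Esrrb and NanogKO:Esrrb:Nanog. Just outside the rule, 26 regions with a NanogKO peak that met another list over 1 to 10 bp had 1.24, 1.03 and 0.921 CPM. Both sets step down in the same order, less steeply than the median NanogKO-only region.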

How the data were processed

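ATAC-seq was run on 9 libraries, 3 per group. The deposited table gives whole-number counts of reads per region that the authors made from reads aligned to mm10. Per the submitters' processing notes, the tools were MACS2 2.2.0, Bowtie2, bedtools 2.26.0, cutadapt, deepTools 4.4.0, bcl2fastq 2.19.1 and SAMtools 1.4.1. The read counter, any transposase shift and duplicate removal are not given in the sources used here. The 3 deposited peak lists carry a score per interval, the authors' own, used here only to describe or filter NanogKO peaks.

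Regions were matched to the lists by at least 1 bp (bedtools 2.31.1, Python 3.11.15, pandas 2.3.3). Counts of all 9 libraries were fitted in edgeR 4.0.16 (R 4.3.3, limma 3.58.1) with TMM factors, edgeR's filter on low counts, quasi-likelihood tests and Benjamini-Hochberg adjustment over all regions, and the scripts were tested on simulated data. Each SE was derived from the quasi-likelihood test, as the absolute log2 fold change over the square root of the F statistic. DESeq2 1.42.0 was an alternative. Gene names and starts come from RefSeq tables of GRCm38.p6, and all 272 listed genes matched.

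Named regions, at most 1 per nearest gene in each set, are the 10 with the highest NanogKO level, the 10 with the highest ratio of NanogKO to NanogKO:Esrrb:Nanog and the 5 with the lowest among those at or above the median NanogKO level, the 8 largest calls in each direction, up to 2 per gene list by NanogKO level, those nearest Nanog and Esrrb, and promoter and microRNA regions. The Dlk1-Meg3 domain was added after its values were seen. The members and lists were chosen with earlier results of these data known. Replicate numbers are shared by the groups in the labels. Deviations of libraries of NanogKO:Esrrb and NanogKO:Esrrb:Nanog with the same number correlated at 0.105 to 0.146. Libraries of different numbers were not set beside them, so these values do not settle whether the numbers pair the libraries. The main fit, which gave the calls and p-values above, left pairing out. A fit with replicate number as a block was an alternative. Alternatives covered scaling, filters, the tool, the replicate block, the definition of the regions and each library left out. Depth limits precision: the median region had 21 to 87 counts per library, and counts cover counting error only.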

Additional observations from a re-analysis of the deposited data

How the results depend on the processing

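For NanogKO:Esrrb:Nanog against NanogKO:Esrrb, 607 regions were higher and 2426 lower. With the replicate block, which pairs libraries of the same number, the counts were 681 and 2700, and it moved no count by over 1.5 times. DESeq2 gave 624 and 2118, and 2697 of the 3033 edgeR calls were also its calls. Library totals gave 407 and 3048 and put the median of all regions at -0.112, where it was -0.01. Leaving out 1 library of NanogKO:Esrrb or NanogKO:Esrrb:Nanog gave 352 to 658 higher and 1436 to 3187 lower, with medians of -0.38 to -0.23. These calls were not counted without a NanogKO library. With 1 library of the groups compared left out, the medians against NanogKO ran from -0.87 to -0.83 for NanogKO:Esrrb and from -1.26 to -1.09 for NanogKO:Esrrb:Nanog. Keeping NanogKO peak scores at or above the median left 8129 regions, by construction fewer, with 396 higher, 1368 lower and medians against NanogKO of -1.08 and -1.37. Using the first 2 lists alone, an alternative chosen after seeing the data, gave 1261 higher, 2464 lower and medians against NanogKO of -0.73 and -0.94, since 3933 regions that the third list keeps out were added. The share within 5 kb of either end of a gene span was 18.2%, and with an overlap of 50% of the region the share within 1 kb was 6.27%. Of 19 gene lists, 3 shares moved beyond their interval at 10 kb: mesendoderm to 4.12%, LIF and STAT3 targets to 2.55% and germline to 15.4%. Over 100 named regions, 1227 of 1287 checks stayed on the same side of the threshold, while 45 lost and 15 gained a call. In 0 checks did the direction change where either fit made a call. A change of sign between fits that both made no call was counted as unchanged. Low counts limit the regions of few base pairs most.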
